A study of Arabidopsis thaliana with 128 samples.

Results

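The 6 alpha-tubulin genes of Arabidopsis thaliana, TUA1 to TUA6, were followed in seedlings that lack parts of the cytoplasmic mRNA decay machinery. They were taken by gene identifier as 6 of the 28775 genes counted (TUA1 AT1G64740, TUA2 AT1G50010, TUA3 AT5G19770, TUA4 AT1G04820, TUA5 AT5G19780 and TUA6 AT4G14960). The family was chosen by the levels of TUA2 and TUA6 in vcs against WT before treatment, where both stood out, so every value of that contrast at 0 min is given as a description with no test. The same holds for vcs sov against vcs at 0 min, which shares the vcs libraries. Tests of sov against WT with 0 min values share the WT libraries behind the choice, so they are not independent of it.

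Whole seedlings 5 d old, grown in constant light at 22 °C, were vacuum infiltrated with 1 mM cordycepin, an adenosine analogue that stops transcription. Samples were taken before treatment (0 min), after 7.5, 15, 30, 60 and 120 min, and then after 240 and 480 min. Per the labels, the vcs sov double mutant carries vcs-7 in Col-0, an accession whose own SOV allele is the sov one. The vcs mutant carries vcs-7 together with a SOV transgene from the accession L.er, sov is Col-0 itself, and WT is Col-0 with that transgene. Each of the 32 groups of genotype and time had 4 libraries, numbered as biological replicates, and each replicate drew on a pool of seedlings, so p-values measure the spread between these pools. For 2 libraries of replicate 3 at 60 min, of vcs and vcs sov, the labels report swapped tubes that were put right. VCS (VARICOSE) is a scaffold of the mRNA decapping complex, and SOV (SUPPRESSOR OF VARICOSE) is an exoribonuclease that degrades RNA from its 3' end.

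Alpha- and beta-tubulin proteins pair into the building block of microtubules, which in plants guide cellulose deposition, cell expansion and division. Plants carry several genes for each partner, and these genes differ in where and how strongly they are transcribed. TUA2 and TUA4 encode the same protein, TUA3 and TUA5 encode another, and TUA1 is known as the member used most in pollen. Dominant mutations in TUA4 and TUA6 twist the growth of roots and organs.

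Sequence showed how far the 6 genes can be told apart. All had a coding sequence of 1353 bases in the RefSeq annotation of the TAIR10.1 assembly. The last 60 coding bases, positions 1294 to 1353 counted from the first base of the start codon, are shown because they encode the variable tail of the protein and display the relation between the copies. Capitals mark the bases that differ from TUA2.
TUA1: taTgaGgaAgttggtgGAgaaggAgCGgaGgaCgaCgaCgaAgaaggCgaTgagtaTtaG
TUA2: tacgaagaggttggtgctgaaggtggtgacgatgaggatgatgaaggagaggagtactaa
TUA4: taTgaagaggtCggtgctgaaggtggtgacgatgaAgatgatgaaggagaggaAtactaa
TUA6: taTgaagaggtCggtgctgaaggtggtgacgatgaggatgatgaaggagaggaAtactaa
TUA3: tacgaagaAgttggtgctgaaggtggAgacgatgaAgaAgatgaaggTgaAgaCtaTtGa
TUA5: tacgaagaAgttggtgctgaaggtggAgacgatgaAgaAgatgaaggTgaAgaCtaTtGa
In this stretch TUA4 differed from TUA2 at 4 bases and TUA6 at 3, while TUA3 and TUA5 were identical to each other and differed from TUA2 at 9. TUA1 differed at 17. The whole coding sequences fell into the same 3 groups. TUA2 and TUA4 were 96.6% identical, TUA4 and TUA6 95.7%, TUA2 and TUA6 95.1%, and TUA3 and TUA5 97.9%, whereas every pair across groups was 74.4% to 79.4% identical.

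Reads could therefore be shared within a group, while no stretch of 50 bases occurred in members of different groups. Of all stretches of 50 bases in each annotated mRNA, none of TUA1 occurred in another member, against 10.5% of TUA2, 11.2% of TUA6, 18.4% of TUA4, 31.96% of TUA3 and 35.4% of TUA5. How the authors' counting assigned reads that match several genes is not given in the sources used here. TUA4 shared 8.58% of its stretches with TUA2 and 9.83% with TUA6. These 5 genes are thus less certain as single genes than as sums within their group, TUA2 plus TUA4 plus TUA6 and TUA3 plus TUA5. TUA3 and TUA5 are neighbours on opposite strands of chromosome 5, TUA1, TUA2 and TUA4 lie on chromosome 1, and TUA6 on chromosome 4. Genes on the opposite strand overlap TUA1, TUA2 and TUA5, and the strand setting of the counting is not given. AT1G64750 overlaps TUA1 by 126 bases and averaged 72.6 nuclear RPM in vcs sov, 63.5 in vcs, 56.4 in sov and 56.6 in WT at 0 min, above TUA1 itself in each genotype. AT1G50020 overlaps TUA2 by 55 bases and averaged 31.5 in vcs sov, 25.03 in vcs, 34.9 in sov and 38.4 in WT. AT5G19790 overlaps TUA5 by 64 bases and averaged 1.08 to 2.89 in the 4 genotypes. The longest overlaps, 600 bases of AT1G07603 with TUA2 and 478 bases of AT1G08727 with TUA1, are with genes not analysed here.

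Sequencing depth ranged from 11.5 to 37.4 M gene reads per library, of which 5.24 to 24.1 M were nuclear, so a count of 3 reads equals 0.124 to 0.572 RPM. Levels are given as nuclear RPM, that is, RPM (a read count scaled to library size) recomputed over the nuclear genes alone, because plastid reads took very different shares. Nuclear genes held 71.7% to 75.7% of the reads in vcs sov at 0 min, 61.8% to 64.5% in vcs, 50.4% to 52.5% in sov and 46.5% to 50.5% in WT. As a check of the labels, VCS averaged 12.4 nuclear RPM in vcs sov and 7.11 in vcs, against 130.1 in sov and 135 in WT. SOV averaged 248 nuclear RPM in vcs sov and 818 in vcs, against 41.0 in sov and 202 in WT, so it was higher in each line with the transgene than in the line of the same VCS genotype without it. Nuclear RPM is a share of a library: it can go up while a transcript decays if most other transcripts decay faster, and in whole seedlings fewer cells of a type and less RNA per cell cannot be told apart.

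In the vcs sov double mutant, TUA2, TUA6 and TUA4 rose 2.64- to 4.21-fold over sov before cordycepin was given, while TUA3 and TUA5 were lower. TUA2 had 818, 843, 923 and 1118 nuclear RPM in vcs sov, against 211, 221, 222 and 227 in sov. Every vcs sov library lay far above every sov library. The log2 difference was 2.06 (SE 0.09, 95% confidence interval 1.86 to 2.25, adjusted p = 1.7e-12, limma with Benjamini-Hochberg adjustment over 20104 nuclear genes).

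TUA6, the gene behind the widely used fluorescent microtubule markers, had 1125, 1149, 1183 and 1328 nuclear RPM in vcs sov, against 321, 328, 342 and 353 in sov. Its log2 difference was 1.83 (SE 0.08, adjusted p = 1.1e-12, limma). TUA4 had 803, 809, 816 and 1021 nuclear RPM in vcs sov, against 322, 324, 330.3 and 331 in sov, a log2 difference of 1.39 (SE 0.09, adjusted p = 1.5e-10, limma). For both genes the groups were fully apart, and 1 vcs sov library, replicate 1, was the highest for each of TUA2 to TUA6. Without that library the log2 differences were 1.96 for TUA2, 1.31 for TUA4 and 1.78 for TUA6. Summed as near-identical copies, TUA2 plus TUA4 averaged 1788 ± 238 nuclear RPM in vcs sov and 547 ± 8.44 in sov (SD, n = 4 each), a log2 difference of 1.70. All 3 genes together averaged 2984 ± 329 in vcs sov and 883 ± 20.4 in sov, a sum that does not depend on how reads were split among them. The sum would still depend on whether shared reads were left out or counted more than once, which is not given.

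TUA3 went the other way, with 168, 206, 210.0 and 269.9 nuclear RPM in vcs sov, against 317, 319, 323 and 342 in sov. TUA5, its neighbour and near-copy, had 186, 214, 228 and 279 nuclear RPM in vcs sov, against 283, 283, 286 and 292 in sov. The groups did not overlap for either gene, although the highest vcs sov library came close to the sov libraries for TUA5. TUA3 fell by 0.63 on the log2 scale (SE 0.12, adjusted p = 0.00011) and TUA5 fell by 0.35 (SE 0.11, adjusted p = 0.0083), both in limma on nuclear RPM. These falls depended on the scale: on RPM as deposited, in which plastid reads count in the total, the log2 difference was -0.11 for TUA3 (adjusted p = 0.41, limma) and 0.17 for TUA5 (adjusted p = 0.17, limma). The TUA5 call was also lost without replicate 3 (log2 difference -0.33) or replicate 4 (-0.25) in both genotypes.

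TUA1, the lowest member throughout, had 46.7, 47.0, 51.2 and 52.9 nuclear RPM in vcs sov, against 34.0, 35.8, 36.7 and 37.2 in sov. It rose by 0.45 on the log2 scale (SE 0.09, adjusted p = 0.00011, limma), with the groups apart. AT1G64750, which overlaps it on the other strand, also had a higher mean in vcs sov than in sov (above), and its part in the TUA1 value was not tested. In all, 4 of the 6 genes were called higher in vcs sov and 2 lower. Among all 20104 genes tested, 41.6% were called higher and 27.6% lower, 69.2% together, so being called in this comparison was the common case. Of the called genes 60.1% were higher on nuclear RPM, 84.5% on RPM as deposited and 46.7% centred on the median of all nuclear genes. The median log2 difference was 0.92 over the 6 genes and 0.15 over all genes, and the differences of TUA2, TUA4 and TUA6 lie well beyond that shift.

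**Figure D1:**
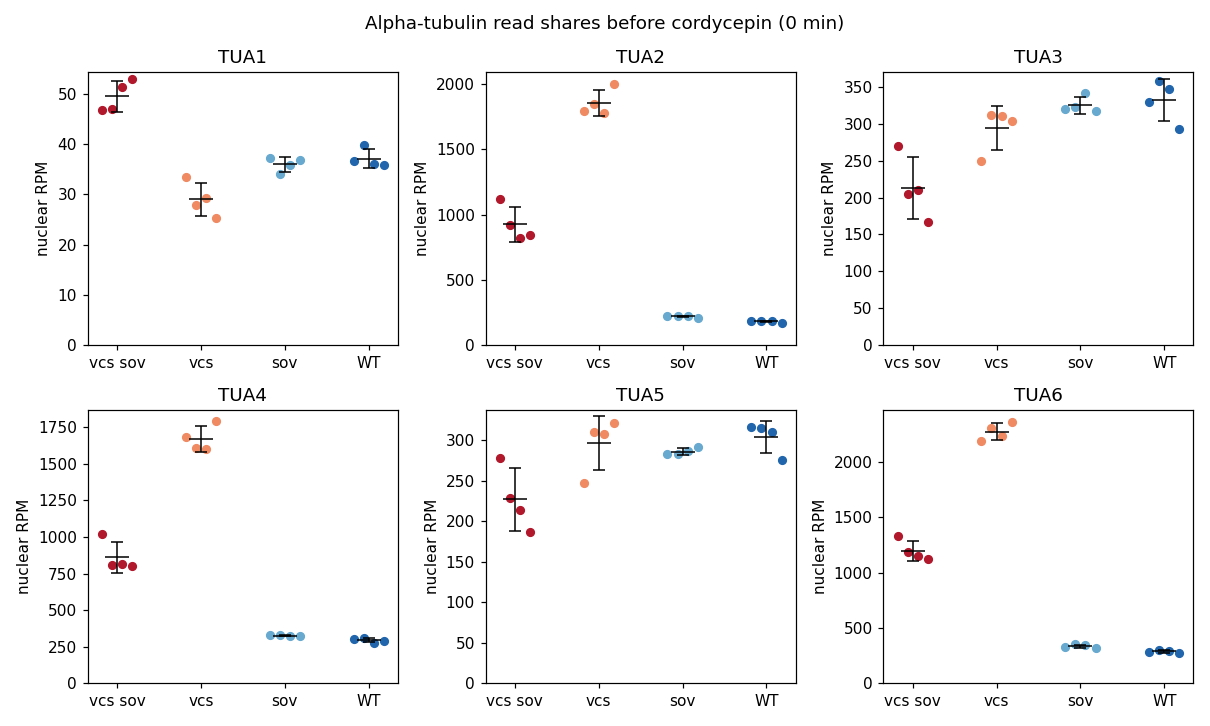
Each panel shows 1 alpha-tubulin gene, with nuclear RPM at 0 min on the y axis from 0 and the 4 genotypes on the x axis; points are libraries, and black marks are means with SD (n = 4). TUA2, TUA4 and TUA6 are high in vcs sov and higher in vcs, TUA3 and TUA5 are lowest in vcs sov, and sov lies near WT in all 6 panels.

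The contrast by which the family was chosen, vcs against WT at 0 min, is described without a test. TUA2 had 1777, 1795, 1847 and 2002 nuclear RPM in vcs, against 172, 182, 185 and 187 in WT, a ratio of means of 10.2. TUA6 had 2184, 2229, 2300.0 and 2359.9 in vcs, against 273, 285, 296 and 300.4 in WT, a ratio of 7.86. TUA4, which was not among the genes that led to the choice, had 1599, 1609.8, 1681 and 1789 in vcs, against 277, 288, 304 and 313 in WT, a ratio of 5.65. The groups were far apart for all 3.

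The other 3 members showed no such separation in vcs. TUA3 averaged 294 ± 29.6 nuclear RPM in vcs and 332 ± 28.7 in WT, and TUA5 averaged 297 ± 33.4 in vcs and 304 ± 19.4 in WT (SD, n = 4 each). TUA1 averaged 29.0 ± 3.33 in vcs and 37.0 ± 1.89 in WT, the opposite side from its rise in vcs sov over sov. In this contrast 48.6% of the 20104 genes were called, 35.4% higher and 13.2% lower. That balance turned with the scale: of the called genes 72.8% were higher on nuclear RPM and 93.9% on RPM as deposited, but 41.4% centred on the nuclear median (19.4% of genes higher and 27.4% lower), 50.2% in edgeR and 49.4% in DESeq2.

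The double mutant held lower levels than vcs of every member but TUA1, again as a description. Its ratios of means to vcs were 0.499 for TUA2, 0.516 for TUA4, 0.527 for TUA6, 0.725 for TUA3 and 0.765 for TUA5. TUA1 averaged 49.5 ± 3.11 nuclear RPM in vcs sov and 29.0 ± 3.33 in vcs, a ratio of 1.71. Of all genes, 54.6% were called, 26.1% higher and 28.6% lower, in vcs sov against vcs at 0 min. Higher genes were 47.7% of the calls on nuclear RPM and 69.7% on RPM as deposited.

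Loss of SOV activity alone left the 6 genes without a call. In sov against WT at 0 min, none of the 6 passed the test (all adjusted p = 1, limma), and only 0.0448% of genes did, 0.0149% higher and 0.0298% lower. TUA2 averaged 220.1 ± 6.89 nuclear RPM in sov and 181 ± 6.58 in WT, a log2 difference of 0.28 (95% confidence interval 0.08 to 0.47), and TUA6 averaged 336 ± 14.2 in sov and 289 ± 12.4 in WT (0.22, 0.05 to 0.39). For both genes every sov library lay above every WT library. The intervals for the other 4 genes included 0 and stayed between -0.32 and 0.33. The comparisons vcs sov against sov and sov against WT share the sov libraries. The WT libraries at 0 min also entered the contrast by which the family was chosen. At an unadjusted p under 0.05, 695 genes differed between sov and WT in limma, and edgeR called 8 genes and DESeq2 10 after adjustment, none of them an alpha-tubulin gene.

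Set per kb of annotated mRNA, to put the genes beside one another, the order of the members differed between the genotypes with and without VCS. The length is that of the whole mRNA, of which other members share 0% in TUA1 and up to 35.4% in TUA5. How reads from shared stretches were counted is not given, so the order of close values between genes is uncertain. In vcs sov the level was 636 ± 48.3 nuclear RPM per kb for TUA6, 521 ± 76.6 for TUA2, 437 ± 53.8 for TUA4, 127 ± 21.7 for TUA5, 109 ± 21.5 for TUA3 and 29.9 ± 1.88 for TUA1 (SD, n = 4). In vcs the order was the same, from 1206 ± 41.3 for TUA6 to 17.5 ± 2.01 for TUA1. In sov TUA6 (179 ± 7.53), TUA4 (166 ± 2.25), TUA3 (166 ± 5.79) and TUA5 (161 ± 2.31) were near one another, above TUA2 (124 ± 3.88) and TUA1 (21.8 ± 0.862). In WT TUA5 (171 ± 10.9) and TUA3 (169 ± 14.6) led, followed by TUA6 (153 ± 6.59), TUA4 (149.9 ± 8.07), TUA2 (102 ± 3.71) and TUA1 (22.4 ± 1.14).

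Several neighbours in those orders had overlapping ranges of mean ± SD. These were TUA6 and TUA2, and TUA2 and TUA4, in vcs sov, TUA5 and TUA3 in vcs sov, vcs and WT, TUA4, TUA3 and TUA5 in sov, and TUA3, TUA6 and TUA4 in WT. Only TUA1 was below TUA2 in sov and WT, whereas only TUA6 was above it in vcs sov and vcs.

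The alpha-tubulin reads as a whole, and their make-up, changed with it. At 0 min the 6 genes together took 0.347% ± 0.0403 of nuclear reads in vcs sov and 0.153% ± 0.00241 in sov (SD, n = 4 each). The 4 vcs sov libraries ranged from 0.318% to 0.406% and the 4 sov libraries from 0.150% to 0.156% (exact permutation test, two-sided, p = 0.0286, adjusted p = 0.0429 over 6 tests). With 4 libraries a side, 0.0286 is the smallest p the design allows. In vcs the share was 0.641% ± 0.0275 and in WT 0.144% ± 0.0074, as a description. Between sov and WT the share differed by 0.00913 percentage points (exact permutation test, adjusted p = 0.0686).

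Within the alpha-tubulin reads of vcs sov at 0 min, TUA6 took 34.5%, TUA2 26.6% and TUA4 24.8%, while TUA5 took 6.51%, TUA3 6.10% and TUA1 1.44%. In sov the same genes took 22.0%, 14.4% and 21.4%, and 18.7%, 21.2% and 2.35%. The 3 genes of the first group together made up 85.9% ± 0.865 in vcs sov and 57.7% ± 0.690 in sov. Each of the 6 shares differed between vcs sov and sov, with no overlap of libraries (exact permutation tests, p = 0.0286 each, adjusted p = 0.0343 over 12 tests). The 6 shares sum to the whole, so they are not independent of one another.

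Smaller shifts of the same sign appeared between sov and WT. TUA2 took 14.4% ± 0.272 of the alpha-tubulin reads in sov and 12.6% ± 0.230 in WT, and TUA6 took 22.0% ± 0.655 in sov and 20.1% ± 0.385 in WT. TUA5 took 18.7% ± 0.506 in sov and 21.1% ± 0.513 in WT, and TUA1 took 2.35% ± 0.120 in sov and 2.58% ± 0.0914 in WT. For these 4 genes the libraries did not overlap (exact permutation tests, adjusted p = 0.0343). The shares of TUA3 and TUA4 did not pass the test (exact permutation tests, adjusted p = 0.0623 and 0.2). These tests of sov against WT use the WT libraries behind the choice of the family, so they are not independent of that choice.

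**Figure D2:**
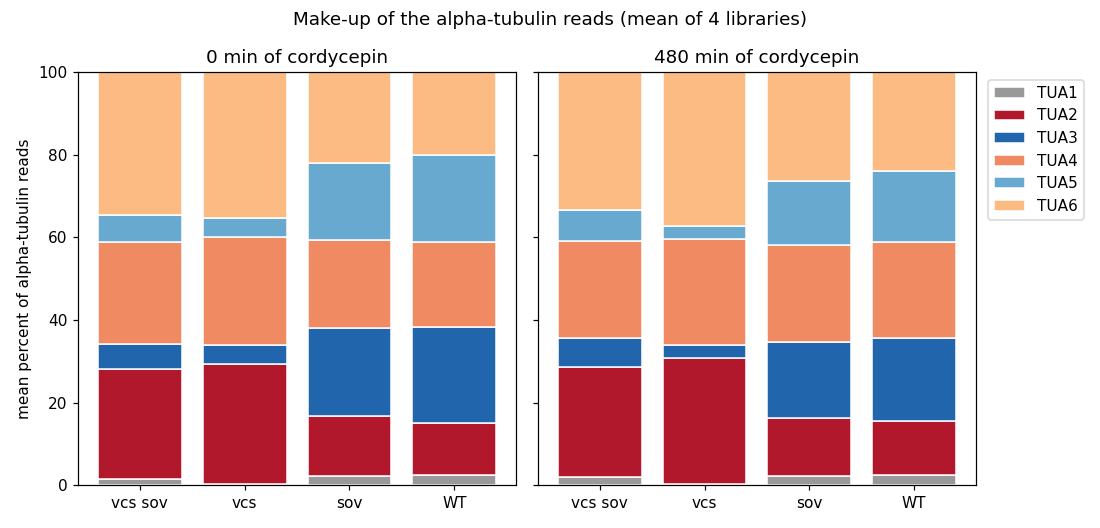
Stacked bars show the mean percent of alpha-tubulin reads taken by each of the 6 genes, by genotype, at 0 min (left) and 480 min (right). TUA2, TUA4 and TUA6 together take 85.9% in vcs sov and 90.3% in vcs, against 57.7% in sov and 53.2% in WT at 0 min.

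Beta-tubulin, the partner of alpha-tubulin, did not keep pace. Alpha-tubulin reads were 1.95 ± 0.132 times the reads of the 9 beta-tubulin genes in vcs sov and 1.06 ± 0.0133 times in sov (exact permutation test, p = 0.0286, adjusted p = 0.0286 over 2 tests, no overlap). The ratio was 3.46 ± 0.178 in vcs and 0.965 ± 0.0139 in WT, and it was also higher in sov than in WT without overlap (exact permutation test, adjusted p = 0.0286). The test of sov against WT uses the WT libraries behind the choice of the family, so it is not independent of that choice.

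Of the 9 beta-tubulin genes, 6 were called higher in vcs sov than in sov at 0 min, 2 lower and 1 neither, with a median log2 difference of 0.27. Among all genes 41.6% were called higher and 27.6% lower. TUB3 averaged 338 ± 59.7 nuclear RPM in vcs sov and 175 ± 9.19 in sov (log2 difference 0.93), TUB9 averaged 204 ± 11.9 and 135 ± 9.18 in those genotypes (0.59), and TUB2 averaged 317 ± 30.7 and 216 ± 9.82 (0.55). TUB5 was lower, with 95.1 ± 16.7 in vcs sov and 162 ± 12.2 in sov (-0.78). No beta-tubulin gene reached the difference of TUA4. On RPM as deposited 7 of the 9 were called higher and 0 lower, beside 66.9% and 12.3% of all genes. Centred on the median of all nuclear genes 3 were called higher and 2 lower, beside 32.4% and 36.9% of all genes. Whether the counts of these 9 genes depart from those shares was not tested.

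The other lists around tubulin are given beside the all-gene median of 0.15 and the 41.6% of genes called higher and 27.6% called lower. Of 6 genes for gamma-tubulin and its ring complex, which nucleate microtubules, 1 was called higher and 3 lower in vcs sov against sov at 0 min, with a median log2 difference of -0.18. SPC98 was higher (0.94), and TUBG2 (-0.50), NEDD1 (-0.31) and SPC97 (-0.21) were lower. Of 5 tubulin folding cofactors, which assemble the alpha-beta pair, TFCA (0.29) and TFCD (0.23) were higher and TFCC (-0.32) lower.

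Prefoldin, the chaperone that hands new tubulin chains to the folding machinery, had 3 of 6 subunits called lower and 0 higher, PFD1 (-0.86), PFD5 (-0.52) and PFD3 (-0.32). Of 20 microtubule-associated proteins tested from a list of 22, 12 were called higher and 1 lower, with a median of 0.45. The largest were MAP65-8 (1.301), the minus-end protein gene SPR2 (0.90), MAP65-4 (0.75) and MAP65-7 (0.73), the MAP65 proteins being cross-linkers of microtubules. On RPM as deposited the medians of all 5 lists were above 0, at 0.22 to 0.97, beside an all-gene median of 0.64 on that scale. Gamma-tubulin genes then had 4 higher and 0 lower calls, folding cofactors 4 and 0, and prefoldin 2 and 1, where 66.9% of all genes were called higher and 12.3% lower. Centred on the nuclear median, the microtubule-associated proteins had 11 higher and 5 lower calls and a median of 0.25. Gamma-tubulin genes had 1 and 4 on that scale, folding cofactors 0 and 2, and prefoldin 0 and 5. Of all genes 32.4% were called higher there and 36.9% lower.

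**Figure D3:**
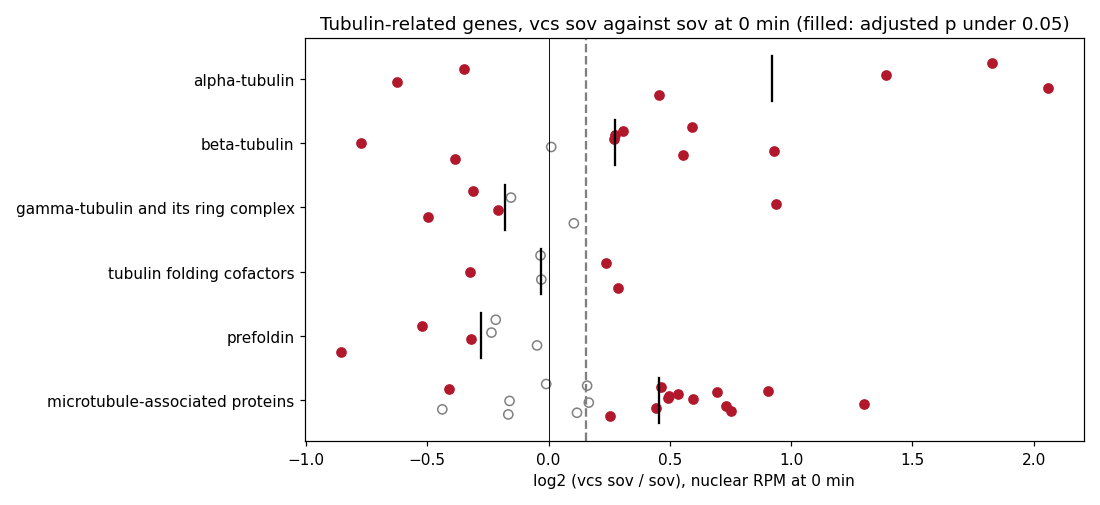
Each point is 1 gene, placed by its log2 difference in nuclear RPM between vcs sov and sov at 0 min; filled points have an adjusted p under 0.05 in limma, black bars are list medians, and the dashed line is the all-gene median of 0.15. TUA2, TUA6 and TUA4, at 2.06, 1.83 and 1.39, lie right of every gene in the other 5 lists.

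After transcription was blocked, the 3 elevated transcripts kept or gained read share in vcs to the end, but lost it again in vcs sov after 120 min. Mean TUA6 in vcs sov was 1196, 1258, 1293, 1311, 1403, 1493, 1402 and 1168 nuclear RPM over the 8 times. In vcs it was 2268, 2319.8, 2392, 2463, 2754, 3165, 3676 and 4186. TUA2 and TUA4 followed the same course, with a maximum at 120 min in vcs sov (1179.5 and 1105) and at 480 min in vcs (3411 and 2866).

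In sov and WT the same genes also gained share. From 0 to 480 min, TUA6 reached a mean ratio of 1.58 in sov and 1.68 in WT, beside 1.84 in vcs. TUA4 reached 1.44, 1.58 and 1.72 in those genotypes, and TUA2 1.29, 1.45 and 1.84. TUA6 moved in sov through 336, 342, 362, 374, 398, 431, 479 and 529 nuclear RPM, and in WT through 289, 303, 316, 325, 348, 394, 459 and 485. The mean ratio of 480 min to 0 min lay between 1.09 and 1.23 for TUA3 and TUA5 in every genotype, and the order of the genotypes in TUA3 was the same at all 8 times.

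**Figure D4:**
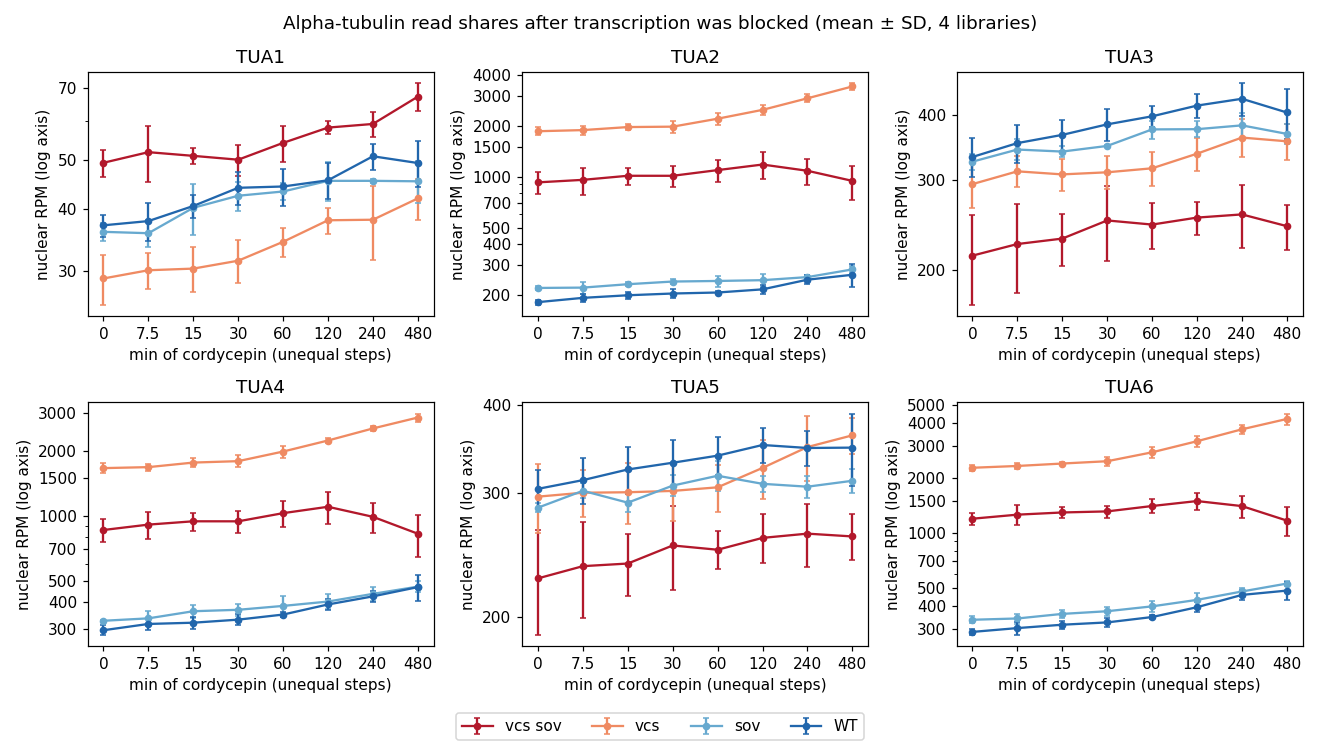
Each panel shows 1 gene, with nuclear RPM on a log axis against minutes of cordycepin (unequal steps); lines join group means, and bars are SD (n = 4). TUA2, TUA4 and TUA6 climb to 480 min in vcs, sov and WT, and turn down after 120 min in vcs sov.

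Decline was measured as the slope of log2 RPM on time from 0 to 120 min in each of the 16 courses, after each library was scaled to 50 reference genes, those with the slowest unscaled decline. All 6 genes belonged to the slowly declining transcripts in all 4 genotypes. Their mean slopes ran from -0.31 to -0.04 log2 units per h, against all-gene medians of -0.37 in vcs sov, -0.40 in vcs, -0.53 in sov and -0.48 in WT. Between 1.53% and 22.8% of the 15289 genes fitted had a higher mean slope than a member. No member was a reference gene. A slope is relative to the reference genes, so any half-life rests on them.

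TUA2 declined more slowly in both genotypes that lack VCS than in their counterparts. Its slopes averaged -0.16 ± 0.05 in vcs sov and -0.29 ± 0.02 in sov (SD, n = 4 each), and the highest of sov (-0.27) lay below the lowest of vcs sov (-0.22). The difference was 0.13 log2 units per h (SE 0.04, adjusted p = 0.0073, limma). Slopes of TUA2 averaged -0.07 ± 0.04 in vcs and -0.22 ± 0.02 in WT, a difference of 0.15 (SE 0.04). As half-lives these slopes correspond to 377.5 min in vcs sov, 890.3 min in vcs, 209 min in sov and 271 min in WT. These half-lives describe the fitted window only, since TUA2 did not keep to these rates afterwards in vcs, sov and WT. Scaled to the reference genes, its mean ratio to the starting level was 0.887, 0.663 and 0.749 in those genotypes when the window ended. At 480 min it was 1.15, 0.669 and 0.772. In vcs sov the ratio fell from 0.825 to 0.515 between these times.

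The TUA2 difference of 0.13 in vcs sov against sov was near the all-gene median of 0.14, whereas in vcs against WT its 0.15 stood above a median of 0.07. In vcs sov against sov, 1 of the 6 members was called higher and 0 lower, while 49% of genes were called, 45.7% higher and 3.38% lower. In vcs against WT, 1 member was called higher and 0 lower, against 24.2% and 5.45% of genes (29.6% in all). Of the called genes 81.6% were higher in vcs against WT, and 67.6% on nuclear RPM without reference genes.

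The vcs slopes use the 0 min libraries through which the family was chosen, so the 0 to 120 min values of vcs against WT are a description. Slopes were therefore also fitted from 7.5 to 120 min, leaving the 0 min values out. The TUA2 difference was then 0.17 for vcs against WT (adjusted p = 0.0042, limma) and 0.11 for vcs sov against sov (adjusted p = 0.036, limma). In vcs against WT it was the 1 member called, beside 27% of genes, 21.2% higher and 5.84% lower. The call held without each replicate in turn, at 0.16 to 0.19.

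The TUA2 slope calls were not stable to every choice. With TUA2 and TUA4 summed, the difference in vcs sov against sov was 0.09 (adjusted p = 0.059, limma), and without replicate 2 the TUA2 value was 0.12 (adjusted p = 0.063, limma). With 20 reference genes the vcs against WT difference was 0.14 (adjusted p = 0.063, limma). TUA4 itself declined at -0.16 ± 0.06 in vcs sov and -0.22 ± 0.03 in sov, a difference of 0.06 (95% confidence interval -0.02 to 0.15), which did not pass the test. TUA6 declined at -0.18 ± 0.04 in vcs sov and -0.18 ± 0.03 in sov, a difference of 0.01 (-0.07 to 0.08), although its level at 0 min differed 3.56-fold between them.

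Against vcs, the double mutant is described over 0 to 120 min without a test, since the same 0 min libraries enter. The slope of TUA6 was -0.18 ± 0.04 in vcs sov and -0.04 ± 0.04 in vcs, a difference of -0.14 (SE 0.04), and TUA2 and TUA4 differed by -0.09 and -0.10. In that window 9.01% of all genes were called, 6.53% higher and 2.49% lower. Higher genes were 72.4% of those calls, 90.3% on nuclear RPM without reference genes and 85.7% with 20 reference genes.

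From 7.5 min on, TUA6 had a lower slope in vcs sov than in vcs, with a difference of -0.17 (adjusted p = 0.013, limma). The other 5 members did not pass, and 6.42% of genes were called, 4.21% higher and 2.22% lower. The TUA6 call was lost without replicate 2 (-0.18), replicate 3 (-0.17) or replicate 4 (-0.15), and it held without replicate 1 (-0.17).

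In sov against WT no slope passed the test in limma, among the 6 members or among all 15289 genes (0% called, 1696 genes at an unadjusted p under 0.05), and no other tool was run on slopes. Member differences lay between -0.08 and -0.01 log2 units per h. The vcs effect on slope was not shown to differ by SOV status for any member: the interaction ran from -0.11 for TUA1 to 0.07 for TUA3, with adjusted p of 0.37 to 0.89 in limma, and 3.58% of genes were called (3.29% higher and 0.288% lower). Both comparisons use 0 min libraries of the contrast behind the choice of the family, so neither test is independent of that choice.

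**Figure D5:**
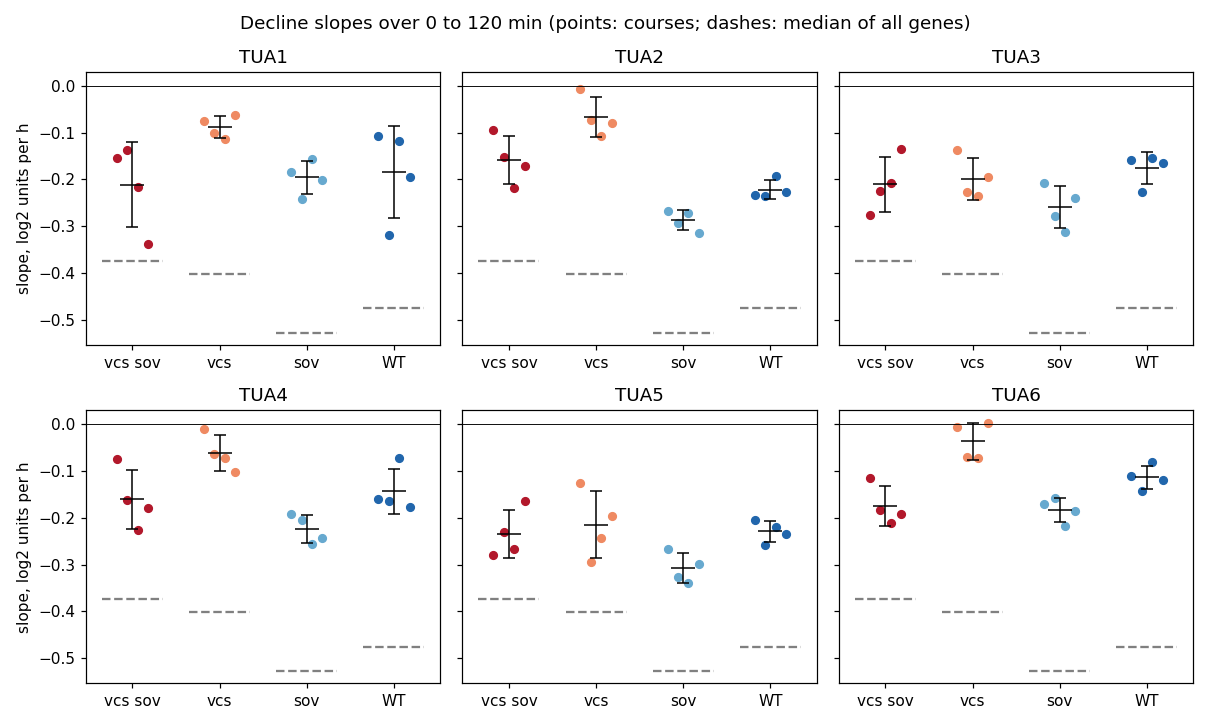
Each panel shows 1 gene, with the slope over 0 to 120 min in log2 units per h on the y axis; points are the 4 courses of each genotype, black marks are means with SD, and grey dashes are the all-gene medians. All 6 genes lie above the all-gene median in every genotype, and TUA2 is higher in vcs sov than in sov and in vcs than in WT.

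At 480 min, in libraries other than those that led to the choice of genes, vcs stood above WT for the same 3 members. With transcription blocked, these levels carry on from those at 0 min, so the tests here are not independent of the choice. The same holds for every other test at 480 min that includes the vcs or WT libraries. Whether the gap differed from that at 0 min was not tested. TUA2 had 3253, 3298, 3480.3 and 3614 nuclear RPM in vcs, against 227, 234, 283 and 309 in WT, a log2 difference of 3.70 (SE 0.12, adjusted p = 7.5e-15, limma over 18729 genes). TUA6 had 3832, 4048, 4429 and 4435 in vcs, against 436, 450.2, 492 and 561 in WT (3.11, SE 0.11), and TUA4 had 2768, 2821, 2824 and 3051 in vcs, against 396, 443, 485 and 550.0 in WT (2.62, SE 0.12). The groups were fully apart for all 3 genes.

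TUA1 (-0.23), TUA3 (-0.18) and TUA5 (0.06) did not pass the test in vcs against WT at 480 min. Of the 6 members 3 were called higher and 0 lower, against 37.8% and 15% of all genes (52.8% in all). Of the called genes 71.6% were higher on nuclear RPM and 93.2% on RPM as deposited, but 38.9% centred on the nuclear median, 52.1% in edgeR and 49.8% in DESeq2. Lower calls of members depended on the scale too: centred on the nuclear median TUA1 (-0.59), TUA3 (-0.54) and TUA5 (-0.29) were called lower (32.2% of genes lower), and edgeR called TUA1 (-0.47) and TUA3 (-0.42) lower. On RPM as deposited the same 3 genes were above 0, and TUA5 (0.50) was called higher.

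In vcs sov against sov at 480 min, TUA2 kept the largest difference of the members. It had 775, 829.7, 911 and 1262 nuclear RPM in vcs sov, against 264, 288, 289 and 292 in sov, a log2 difference of 1.71 (SE 0.12, adjusted p = 9.0e-11, limma). TUA6 had 966, 1077, 1176 and 1455 in vcs sov, against 515, 524, 530.4 and 549 in sov (1.12, SE 0.11). Neither gene showed overlap between the genotypes.

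These values stand beside a large shift of the whole library. The all-gene median difference was 0.69 in vcs sov against sov at 480 min on nuclear RPM, and 76% of genes were called, 61.6% higher and 14.4% lower. Of the called genes 81.1% were higher on nuclear RPM and 94.8% on RPM as deposited, but 40.4% centred on the nuclear median (27.3% of genes higher and 40.3% lower), 54.5% in edgeR and 52.3% in DESeq2. TUA4 (0.79), TUA1 (0.56), TUA3 (-0.60) and TUA5 (-0.26) were also called on nuclear RPM, so that 4 members were called higher and 2 lower. Centred on the nuclear median, TUA2 was at 0.86 and TUA6 at 0.27 with their calls kept, TUA4 was at -0.06 and not called, and TUA1 was at -0.29 and called lower. In edgeR TUA4 (0.15) and TUA1 (-0.09) were not called. On RPM as deposited TUA3 (0.15) was not called and TUA5 (0.48) was called higher. The TUA5 call was also lost without replicate 3 (-0.25) or replicate 4 (-0.21). TUA2 and TUA6 were called higher on each of these scales, and the directions of TUA1, TUA3, TUA4 and TUA5 rested on the scale.

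In vcs sov against vcs at 480 min, 5 members were called lower and 1 higher, against 14% and 46.9% of all genes (60.9% in all). The balance of all genes rested on the scale: higher genes were 77.1% of the calls on nuclear RPM and 90.5% on RPM as deposited, but 43.0% centred on the nuclear median (24.1% of genes higher and 32% lower), 51.5% in edgeR and 49.8% in DESeq2. TUA2 fell by 1.88 on the log2 scale, TUA6 by 1.85 and TUA4 by 1.81, each with complete separation of libraries, while the all-gene median was 0.37. TUA3 (-0.55) and TUA5 (-0.48) were lower on nuclear RPM but were not called on RPM as deposited (-0.21 and -0.13). TUA1 was higher (0.68), a call that was lost when centred on the nuclear median (0.22). In sov against WT at 480 min none of the 6 was called (all adjusted p = 1, limma; 0.032% of genes), with differences of -0.15 to 0.13, 0% of genes called higher and 822 genes at an unadjusted p under 0.05. There edgeR called 3 genes and DESeq2 7 after adjustment, none of them a member.

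The summed alpha-tubulin share at 480 min was 0.351% ± 0.0637 in vcs sov, 1.12% ± 0.0576 in vcs, 0.201% ± 0.00421 in sov and 0.202% ± 0.0226 in WT. It was higher in vcs sov than in sov, lower in vcs sov than in vcs and higher in vcs than in WT, each without overlap (exact permutation tests, p = 0.0286 each, adjusted p = 0.0429). In sov and WT it did not differ beyond the spread (exact permutation test, adjusted p = 0.971).

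The downturn in vcs sov after 120 min was then compared as the log2 change from 120 to 480 min in each course, a test chosen after the courses had been seen. TUA6 changed by -0.36 in vcs sov and 0.40 in vcs, against 0.30 in sov and 0.30 in WT. TUA4 changed by -0.42 in vcs sov, 0.35 in vcs, 0.23 in sov and 0.26 in WT, and TUA2 by -0.33, 0.46, 0.21 and 0.28 in those genotypes. On average only vcs sov, of the 4 genotypes, lost share of these 3 transcripts.

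In vcs sov against sov the differences were -0.54 for TUA2, -0.66 for TUA4 and -0.66 for TUA6 (adjusted p = 0.0018, 0.00044 and 0.00036, limma), whereas the all-gene median was 0.25 and 33.9% of 15289 genes were called, only 3.56% lower. In vcs sov against vcs they were -0.79, -0.78 and -0.77 (adjusted p = 0.00033, 0.00028 and 0.00026, limma), with 23.1% of genes called, 21.6% higher and 1.54% lower. Those splits changed when libraries were scaled to the reference genes: 8.69% of genes were then called higher and 5.94% lower in vcs sov against sov, and 3.12% higher and 8.23% lower in vcs sov against vcs, with an all-gene median of -0.07. TUA1 was called higher in vcs sov against sov (0.21, adjusted p = 0.043, limma; 30.4% of genes called higher), and that call was lost when any 1 of the 4 replicates was left out and when scaled to the reference genes (0.05).

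Scaled to the reference genes, TUA2, TUA4 and TUA6 at 480 min stood at 0.515 ± 0.0719, 0.485 ± 0.0641 and 0.496 ± 0.0839 of their 0 min level in vcs sov. In vcs they stood at 1.15 ± 0.0561, 1.08 ± 0.0429 and 1.16 ± 0.0506 (SD, n = 4). The authors' deposited table gives scaled ratios at 480 min of 0.632 for TUA2, 0.595 for TUA4 and 0.604 for TUA6 in vcs sov, and of 1.02, 0.952 and 1.02 in vcs. The same table gives 0.658, 0.737 and 0.806 in sov and 0.760, 0.831 and 0.880 in WT. The 2 scalings differ in size and, for TUA4 in vcs, in direction (1.08 against 0.952). In both the vcs sov value is the lowest of the 4 genotypes for each of these genes. For TUA2 the authors' ratios in vcs sov and sov are close, at 0.632 and 0.658.

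The change between 120 and 480 min in vcs relative to WT did not pass the test for any member on nuclear RPM (13.7% of genes called, 7.59% higher and 6.08% lower, or 15.6% and 3.36% scaled to the reference genes), and the interaction was called for 3: -0.73 for TUA2, -0.75 for TUA4 and -0.77 for TUA6 (adjusted p = 0.022, 0.016 and 0.016, limma; 4.49% of genes called, 4.17% higher and 0.327% lower). Scaled to the reference genes 0.131% of genes were called higher and 0.523% lower, with an all-gene median of -0.11 against 0.21 on nuclear RPM. Leaving out a replicate left at most 1 of these 3 calls, with values of -0.85 to -0.67 for TUA2, -0.88 to -0.68 for TUA4 and -0.87 to -0.71 for TUA6. In sov against WT no member was called (0.00654% of genes, all higher).

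Across the 32 group means the first group behaved almost as a single gene. The Pearson correlation of log2 nuclear RPM was 0.998 between TUA4 and TUA6, 0.997 between TUA2 and TUA6, 0.993 between TUA2 and TUA4 and 0.939 between TUA3 and TUA5. TUA2 and TUA3 had -0.520, and TUA1 had negative values with the other 5, from -0.397 to -0.152. These are descriptions over groups that share libraries, and near-copies may also share reads.

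Outside the family, among 17180 nuclear genes that reached 5 nuclear RPM in a group, the patterns most like TUA2 were those of AT1G62480 (r = 0.987), AT1G14250 (0.985) and AT1G33170 (0.981). AT1G14250 was also first for TUA4 (0.981) and TUA6 (0.981), followed by AT1G13930 (0.973) and AT2G43550 (0.971) for TUA4 and by AT1G62480 (0.979) and AT1G13930 (0.977) for TUA6. For TUA3 they were TSA1 (0.971), PGY2 (0.970) and SIR (0.970), and for TUA5 PBP1 (0.962), GSTF10 (0.958) and AT1G52300 (0.956). For TUA1 they were APM1 (0.966), PHOS34 (0.958) and PGLCT (0.956). Each r is over the same 32 group means.

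Markers of cell types moved with the genotypes too. Their calls stand beside 41.6% of all genes called higher and 27.6% lower in vcs sov against sov at 0 min. Summed over 10 genes of dividing cells, the level at 0 min was 182 to 236 nuclear RPM in vcs sov and 222 to 263 in vcs, against 111 to 128 in sov and 109.6 to 128 in WT, and 6 of the 10 were called higher and 0 lower in vcs sov against sov. Summed over 4 genes of green shoot tissue, it was 16539 to 20865 in vcs sov and 31869 to 41513 in vcs, against 36284 to 45188 in sov and 35152 to 40986 in WT, with all 4 called lower in vcs sov against sov. Over 5 root genes it was 4839 to 6332 in vcs sov, 7586 to 9551 in vcs, 6012 to 6995 in sov and 6100.5 to 6785 in WT, with 3 called higher and 2 lower in vcs sov against sov. All of the root and green shoot genes had reads in each genotype. The part of cell make-up in the tubulin differences was not tested. Of 3 pollen genes 1 was at 0 in every library at 0 min, and the sum reached at most 0.731 nuclear RPM in any library, whereas TUA1 had at least 25.4.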

How the data were processed

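Total RNA depleted of ribosomal RNA was made into stranded libraries, per the labels' protocols. The authors' deposited RPM values hold 28775 genes in 128 libraries, and per the submitters' processing notes HTSeq 0.6.1, TopHat2 2.0.12 with Bowtie2 2.2.3, R 3.1.0, FastQC and SAMtools were used with TAIR10. The deposited RPM values were all whole multiples of 1 read within 0.001 reads, so reads were recovered from them. The authors' deposited table of means also holds RPKM at 0 min, the ratio of each time to 0 min after the authors' scaling with its SD, log2 fold changes and p-values. How these were made is not given in the file headers, and only ratios are printed from them.

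RPM was recomputed over 28496 nuclear genes, since the plastid share differed between genotypes. Levels were tested as log2(nuclear RPM + 0.5) with limma 3.58.1 in R 4.3.3, over genes with a mean of at least 1 nuclear RPM in 1 genotype, 16 libraries per fit, Benjamini-Hochberg adjustment and a threshold of 0.05. Log2 differences of levels are on that scale, while fold values and ratios of means are ratios of group mean nuclear RPM. Slopes over 0 to 120 min were fitted per course for genes that every genotype held at 2 RPM or more at 0 min, after scaling to 50 reference genes of at least 10 RPM. Slopes from 7.5 to 120 min were added after the data were seen. All 6 members passed both filters. Shares were compared by exact two-sided permutation tests over 4 libraries against 4 (SciPy 1.17.1). Alternatives were edgeR 4.0.16 and DESeq2 1.42.0 on the recovered reads, other scalings, filters, pseudocounts and time windows, copies summed and replicates left out. The fits were tested on simulated data. The members and lists were chosen with earlier results of these data known. Every member is named, list genes are named if called in vcs sov against sov at 0 min, up to 4 per list by size, and likeness names the 3 genes of highest correlation. Sequences are from RefSeq (TAIR10.1), matched by gene identifier for all 6 members.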

Additional observations from a re-analysis of the deposited data

Results flagged for a closer look

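Of 104 groups of 4 libraries or courses screened, 13 held a value far from the other 3, and chance gives about 1 in 20. In vcs sov, TUA4 at 0 min was 1021 nuclear RPM in 1 library (803 to 816 in the others), and the change of TUA2 between 120 and 480 min was -0.573 in 1 course (-0.28 to -0.23 in the others). In vcs, TUA3 at 0 min was 250.0 nuclear RPM in 1 library (304 to 312), TUA5 at 480 min 330.6 (369 to 376), and the ratio of alpha- to beta-tubulin reads at 0 min 3.725 (3.33 to 3.40).

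In sov at 480 min, TUA2 was 264.1 nuclear RPM in 1 library (288 to 292) and TUA4 510.7 in another (455 to 460). The change between 120 and 480 min in sov was 0.112 for TUA1 in 1 course (-0.06 to -0.03), 0.0768 for TUA3 (-0.07 to -0.06) and 0.334 for TUA4 (0.19 to 0.21). In WT, TUA5 at 0 min was 275.3 nuclear RPM in 1 library (311 to 316), the slope of TUA3 was -0.226 log2 units per h in 1 course (-0.16 to -0.15), and that of TUA4 -0.0731 (-0.18 to -0.16).

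The vcs effect on the change between 120 and 480 min differed by SOV status for 3 genes in limma. The interaction was -0.728 for TUA2, -0.751 for TUA4 and -0.771 for TUA6, and these calls depended on single replicates as given above.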

How the results depend on the processing

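At 0 min, the 6 calls in vcs sov against sov kept their direction and call centred on the nuclear median, in edgeR, in DESeq2 and without any single vcs sov library, while TUA5 lost its call without replicate 3 or 4 of every genotype. On RPM as deposited 0 members were called lower, TUA5 stood at 0.17 in that comparison, TUA1, TUA3 and TUA5 at 0.0054, 0.19 and 0.32 in vcs against WT, and TUA1 and TUA3 at 0.019 and 0.036 in sov against WT. At 480 min on that scale, 0 members were called lower in vcs sov against sov (TUA3 0.15, TUA5 0.48) and 3 in vcs sov against vcs, and TUA1 and TUA3 stood at 0.20 and 0.25 in vcs against WT. As a share of all reads in genes, the summed alpha-tubulin share was higher in sov than in WT by 0.00788 percentage points at 0 min (past the threshold) and 0.00151 at 480 min.

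Centred on the nuclear median at 480 min, 2 members were called higher in vcs sov against sov (TUA1 -0.29, TUA4 -0.058), 3 lower in vcs against WT (TUA5 -0.29) and 0 higher in vcs sov against vcs. In edgeR 2 members were called higher in vcs sov against sov (TUA1 -0.090) and 2 lower in vcs against WT (TUA5 -0.17), and 3 genes were called in sov against WT, against 10 with no filter and 6 in the limma fit. DESeq2 also gave 2 and 2, with TUA1 at -0.13 and TUA5 at -0.19. With copies summed TUA5 stood at -0.064 in vcs against WT.

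For decline slopes, copies summed left 0 members called higher in vcs sov against sov and 2 in vcs against WT (TUA5 -0.0059). With no filter 5801 genes and 2 members were called in vcs sov against vcs, beside 1378 and 1 in the reported fit. From 7.5 to 120 min TUA6 stood at -0.011 in vcs sov against sov and 318 genes were called for the interaction, beside 547. Over 0 to 60 min 3288 genes and 0 members were called in vcs sov against sov, 2734 and 0 in vcs against WT (TUA5 -0.012), 31 and 0 in vcs sov against vcs (TUA3 0.072, TUA5 0.038) and 0 genes for the interaction, and TUA1 stood at 0.016 in sov against WT. These 0 calls used limma, the only tool run on slopes.

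Over 0 to 240 min, which takes in part of the downturn in vcs sov, 0 members were called higher and 1 lower in vcs sov against sov (TUA4 -0.043, TUA6 -0.069). In vcs against WT 7950 genes and 4 members were called (TUA3 0.042), in vcs sov against vcs 3970 genes and 6 members, and for the interaction 1759 genes and 3 members (TUA3 -0.035, TUA5 -0.039). On nuclear RPM without reference genes TUA6 stood at -0.029 in vcs sov against sov, TUA5 at -0.029 in vcs against WT, TUA1 at 0.023 in sov against WT, and TUA3 and TUA5 at 0.030 and 0.022 in vcs sov against vcs (2677 genes), with 1039 genes called for the interaction. With 20 reference genes TUA1 stood at 0.022 in vcs sov against sov, 0 members were called in vcs against WT (TUA5 -0.0043) and 0 in vcs sov against vcs (TUA3 0.0092, TUA5 0.00075), and the interaction had 1000 genes, with TUA2 at 0.029 and TUA4 at 0.038.

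Scaled to the reference genes, the change between 120 and 480 min had 2237 genes called in vcs sov against sov. That count takes both directions, and 0 members were called higher. In vcs against WT 2 members were called higher, and in sov against WT 0 genes were called (TUA4 0.0039). In vcs sov against vcs 1735 genes were called in either direction, with 5 members lower (TUA1 -0.22). The interaction had 100 genes called (TUA1 -0.13).

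The labels tie a replicate number to no shared batch or day, and each pair of genotypes had at least 1 same-numbered correlation under 0.1, so the numbers were not taken as a pairing. The correlations of same-numbered deviations at 0 min ran from 0.0736 to 0.178 for vcs sov with sov, where every library matched its own number best, a hint from the data, not the design, that they may pair, and from -0.0452 to 0.290 for vcs with WT, 0.0689 to 0.342 for sov with WT and -0.0739 to 0.154 for vcs sov with vcs. In each of these other pairs some libraries, but not all, also matched their own number best, so a pairing is not excluded. The exact permutation tests took no account of a pairing. With the replicate block 1067 genes were called for the slope interaction, and it changed no member's call.

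Leaving out a replicate makes a share test 3 against 3, which cannot go below an exact p of 0.1. The summed share differed by 0.174 to 0.203 percentage points in vcs sov against sov at 0 min and 0.119 to 0.170 at 480 min, by 0.904 to 0.945 in vcs against WT, -0.00674 to 0.00661 in sov against WT and -0.823 to -0.731 in vcs sov against vcs. The ratio of alpha- to beta-tubulin differed by 0.852 to 0.929 in vcs sov against sov and 0.0851 to 0.103 in sov against WT.

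With 1 replicate left out, members called lower in vcs sov against sov numbered 1 to 2 at either time, and 0 to 1 in vcs against WT at 480 min. In sov against WT 5 to 7 genes were called at 0 min and 2 to 7 at 480 min, with TUA1 at -0.070 to 0.018 and TUA3 at -0.073 to 0.015 at 0 min and TUA4 at -0.048 to 0.057 at 480 min. TUA5 in vcs against WT at 480 min lay at -0.031 to 0.14.

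For slopes with 1 replicate left out, 0 to 1 members were called higher in vcs sov against sov (TUA1 -0.055 to 0.025, TUA6 -0.0079 to 0.019). In vcs against WT 2822 to 3993 genes were called (TUA5 -0.0074 to 0.031), and TUA1 lay at -0.041 to 0.010 in sov against WT. In vcs sov against vcs 230 to 1194 genes and 0 to 1 members were called (TUA3 -0.036 to 0.031, TUA5 -0.048 to 0.024), and for the interaction 0 to 555 genes. From 7.5 to 120 min 2474 to 3677 genes were called in vcs against WT (TUA3 -0.025 to 0.0054), and 179 to 816 genes with 0 to 1 members lower in vcs sov against vcs.

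For the change between 120 and 480 min with 1 replicate left out, 2830 to 3820 genes were called in vcs sov against sov. Those genes are of both directions, and 0 members were called higher (TUA5 -0.033 to 0.044). In vcs against WT 652 to 1476 genes were called (TUA1 -0.020 to 0.10, TUA4 -0.014 to 0.18), and 1199 to 2918 in vcs sov against vcs (TUA1 -0.0013 to 0.10). The interaction had 0 to 147 genes called, with 0 to 1 members lower. In sov against WT 0 genes were called (TUA2 -0.14 to 0.011, TUA3 -0.041 to 0.069, TUA4 -0.12 to 0.042, TUA5 -0.028 to 0.085, TUA6 -0.062 to 0.10). The cause of these differences was not tested. Depth did not limit the members, which had at least 237 reads in every library.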
